A study of Drosophila melanogaster with 19 samples.

Results

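Cells sorted from Drosophila melanogaster embryos in which the gene tramtrack (ttk) was driven by the breathless (btl) promoter were compared with sorted control cells on 4 expression arrays, 2 of each kind, of the 19 arrays of the study. The arrays were taken by their sample titles, which name the genotypes btl-GAL4 UAS-ttk btl-enh-RFPmoe for the cells labelled over-expression and btl-GAL4 btl-enh-RFPmoe for their control. Both groups thus carried the btl-GAL4 driver and a red fluorescent reporter under a btl enhancer, and the titles differ by the UAS-ttk transgene alone. According to the study's methods the transgene encodes the Ttk69 form, the driver line also carries UAS-tau-GFP, embryos were collected at the stages of tracheal development, and RNA of several sorting runs of a week was pooled. RNA came from 100000 cells with reporter fluorescence per condition and was amplified before hybridisation to Affymetrix Drosophila Genome arrays, which give 1 log2 expression value per gene and array. The labels disagree in places. The strain field of both control cell samples names the mutant allele ttk2D50, the growth protocol names a control stock with UAS-ttk, and it gives 29 °C and 25 ng of RNA where the methods give a lower temperature and a smaller amount. The btl enhancer is active in the tracheal system and the ventral midline and, by the study's account, also in lateral ectoderm, endoderm and amnioserosa, and the sort gate kept cells with the DNA content of G0/G1. In such a mixture, fewer cells of a type and less RNA per cell cannot be told apart.

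Ttk is a zinc finger transcription factor with a BTB domain and is known mainly as a repressor, which holds back neuronal fate in several tissues of the fly. In the trachea, the network of epithelial tubes that carries air, it acts on tube size, on branch fusion and on the chitinous matrix that lines the lumen. In the GAL4/UAS system the yeast activator GAL4 is made in the cells of a chosen promoter and turns on a transgene placed behind UAS sites, so that the driven gene should be raised in the cells of that promoter.

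The transcript of ttk (FBgn0003870) was lower on the arrays labelled over-expression. The control cells had a log2 expression of 11.89 and 11.99, and the cells labelled over-expression had 11.19 and 11.32. The groups did not overlap, and the difference went against the label. The log2 fold change (logFC, labelled over-expression minus control throughout) was −0.69 with a standard error (SE) of 0.13 (unadjusted p = 0.00673, adjusted p = 0.276 from limma). Whole embryos of the same genotypes, 3 arrays each, gave values from 12.38 to 12.39 for the control and of 12.06, 11.57 and 12.19 under the label, again lower without overlap (logFC −0.45, SE 0.17, unadjusted p = 0.0429, adjusted p = 0.280 from limma). Which part of the transcript the probes cover, and whether it lies in the transgene, is not among the values used here. Every direction given below is therefore one between libraries as labelled, not between measured levels of ttk.

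The tracheal and midline markers that could be named did not pass the test. The tracheal selector trachealess (trh, FBgn0003749) had 12.42 and 12.44 in control cells and 11.58 and 12.46 in cells labelled over-expression. The FGF receptor btl itself (FBgn0005592) had 11.12 and 10.97 in the control and 10.41 and 11.29 under the label. The midline regulator single-minded (sim, FBgn0004666) had 10.38 and 10.50 against 8.82 and 10.05. All of them were lowest on replicate 1 of the cells labelled over-expression, and trh and btl overlapped between the groups. Their logFC was −0.42 (SE 0.33) for trh, −0.19 (SE 0.34) for btl and −1.01 (SE 0.46) for sim, with unadjusted p of 0.282, 0.600 and 0.0927 from limma. Without that replicate they were 0.02, 0.25 and −0.39, while sim passed both thresholds at −1.62 without replicate 2. The GATA factor serpent (srp, FBgn0003507), a marker of haemocytes, endoderm and amnioserosa, moved with them, with 11.27 and 11.41 in the control and 10.49 and 11.51 under the label. In whole control embryos on other arrays, whose medians over all genes were higher, sim was between 8.94 and 9.26 and btl between 9.39 and 9.67, below both control cell arrays. So was srp, between 10.44 and 10.61, and the higher level in cells was thus not limited to tracheal and midline markers. The fusion cell factor dysfusion (dys, FBgn0039411) had 7.17 and 7.04 against 6.69 and 6.81, a logFC of −0.36 (SE 0.13, adjusted p = 0.444 from limma).

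Values of markers of other tissues were close between the groups. The mesoderm gene twist (twi, FBgn0003900) had 6.71 and 6.35 in control cells and 6.85 and 6.60 under the label, and the muscle factor Mef2 (FBgn0011656) had 6.32 and 6.55 against 6.68 and 6.70. Their logFC was 0.20 (SE 0.20) and 0.25 (SE 0.14), and neither passed an unadjusted p of 0.05 with limma. The glial and haemocyte factor gcm2 had a logFC of −0.04 (SE 0.13). These genes stand for few members of their lists, since names could be paired with array genes for 3 of 8 tracheal, 1 of 6 midline, 2 of 10 mesodermal and 1 of 12 haemocyte markers. What part a change in cell make-up has in the results was not tested.

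**Figure D1:**
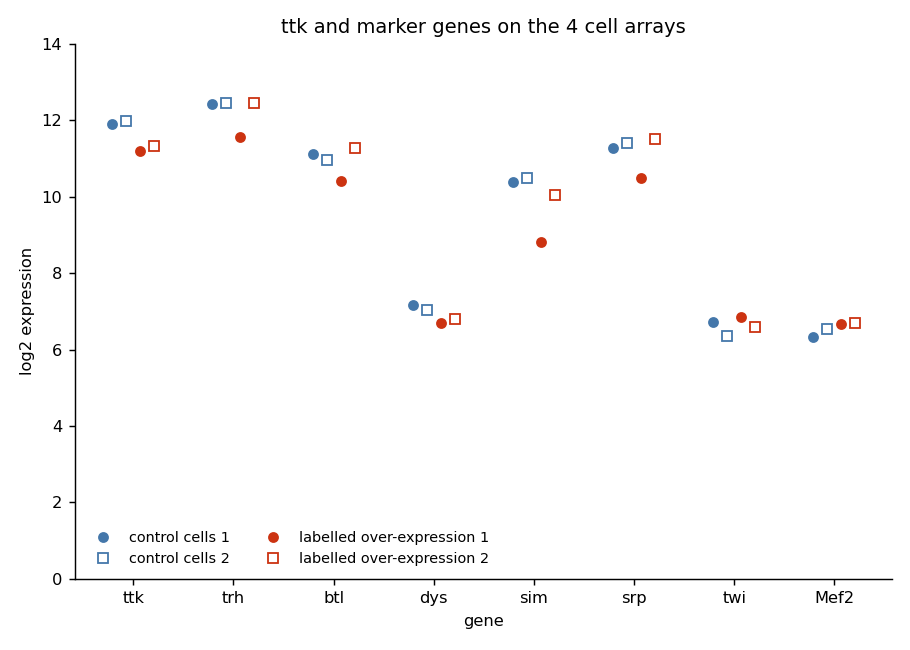
The plot gives log2 expression (vertical axis) of ttk and 7 marker genes (horizontal axis) on each of the 4 cell arrays, with control cells in blue, cells labelled over-expression in red, replicate 1 as filled circles and replicate 2 as open squares. ttk is lower on both arrays labelled over-expression (11.19 and 11.32 against 11.89 and 11.99), while trh, btl, sim and srp are lowest on replicate 1 of these. On replicate 2 sim, at 10.05, also lies below both control values (10.38 and 10.50).

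Across the 12679 genes the control arrays correlated with r = 0.988, the arrays labelled over-expression with r = 0.973, and arrays of different groups with r between 0.970 and 0.983. Array medians were between 8.16 and 8.30, and the median logFC of all genes was 0.01. The replicates labelled over-expression were farther apart than the control replicates. Their values differed by 1 or more for 1091 genes, against 323 in the control, and replicate 1 was the higher in 820 of the 1091. The study calls its replicates biological and the labels do not say whether they are separate collections, so that p-values measure only the spread between these arrays, which may be technical. With 2 arrays against 2, an exact permutation test of a single gene cannot give a two-sided p below 0.333, and the tests below borrow the spread of all genes.

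Of the 12679 genes, 321 (2.53%) were candidates by the study's thresholds, an absolute logFC of 1 or above at an unadjusted p of 0.05 or below. Of these, 234 (1.85% of all genes) were higher and 87 (0.686%) lower in the cells labelled over-expression. None reached an adjusted p of 0.05 with limma, where 1485 genes had an unadjusted p of 0.05 or below, whereas 585 did so with a Cyber-T style test and 188 with limma on all 10 arrays of the over-expression experiment. The median logFC was 1.42 over the higher and −1.27 over the lower candidates, 38 and 12 of them changed by 2 or more, and 8 and 2 by 3 or more. The groups did not overlap for any of the 321, as they did not for 46% of all genes. After each array was centred on its own median there were 319, of which 191 were higher and 128 lower, so that the share of higher ones was 59.9% instead of 72.9%.

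A further 234 genes changed by 1 or more without passing the p threshold, 176 of them higher and 58 lower. In 206 of these the replicates labelled over-expression were 1 or more apart, against 37 of the 321 candidates, and in 185 of the 234 it was replicate 1 that lay farther from the control. The largest among genes with a symbol was CG33272, with 6.13 and 5.82 in control cells and 13.13 and 6.52 under the label. Its logFC of 3.85 had an SE of 2.36, and it was 7.15 without replicate 2 and 0.54 without replicate 1. Takl1, named for its likeness to the kinase Tak1, had the same shape, with 4.21 and 4.42 in the control and 8.54 and 4.86 under the label. Vajk4 had 7.26 and 7.71 against 10.07 and 8.27, a logFC of 1.68 (SE 0.67). For all of them replicate 1 stood alone and replicate 2 lay less than 1 above the control mean. These genes were picked after their values had been seen.

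**Figure D2:**
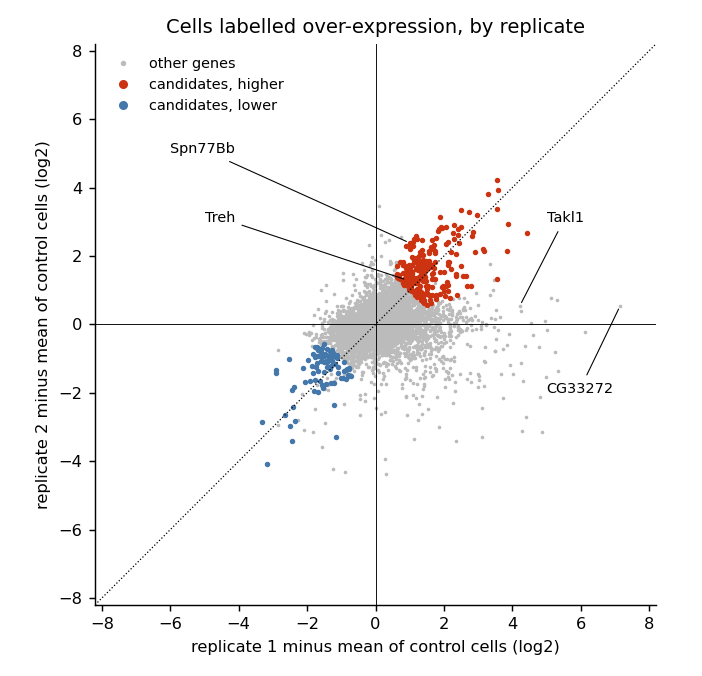
Each point is a gene, with the log2 expression of replicate 1 (horizontal axis) and of replicate 2 (vertical axis) of the cells labelled over-expression, both minus the mean of the control cells, and a dotted line where they are equal. The 234 higher (red) and 87 lower (blue) candidates lie near the line, while the genes that moved on a single replicate spread mostly to the right, as CG33272 does at 13.13 against 6.52.

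A symbol could be given to 112 genes on the array, and 4 of these (3.57%) were candidates, where 2.53% of all genes were. All 4 were higher in the cells labelled over-expression, as were 1.85% of all genes. With so few genes, no excess is read from the count. Treh (FBgn0003748), the trehalase that splits the blood sugar trehalose into glucose, had 10.90 and 10.45 in control cells and 11.61 and 11.97 under the label. Its logFC was 1.11 (SE 0.24, adjusted p = 0.299 from limma), and it missed the threshold at 0.93 without over-expression replicate 2 and at 0.88 without control replicate 2. The maltase gene Mal-B2 (FBgn0032382), another hydrolase of sugars, had 5.15 and 4.84 against 5.52 and 5.90. It was higher by 0.72 (SE 0.21, unadjusted p = 0.0287 from limma), short of the logFC threshold, and it was looked up after its value was known. In neither gene did the groups overlap, as they did not in this direction for 22.6% of all genes.

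The other candidates with symbols were a serpin, a nucleotidase and CG4546. Spn77Bb (FBgn0036969), a member of the serpin family of protease inhibitors, had 3.78 and 4.16 in control cells and 4.97 and 6.35 under the label, a logFC of 1.69 (SE 0.52, adjusted p = 0.388 from limma). NT5E-2 (FBgn0050104), of the 5′-nucleotidase family, had 3.97 and 4.80 against 5.68 and 5.74, a logFC of 1.32 (SE 0.32, adjusted p = 0.327 from limma). Both calls were lost without some arrays. Spn77Bb lost it without either control array (unadjusted p = 0.123 and 0.0757 from limma), and NT5E-2 without control replicate 1, at a logFC of 0.91, or without either array labelled over-expression (unadjusted p = 0.0527 and 0.0590 from limma). In whole embryos of the same genotypes, on 3 arrays of each, the logFC was 2.47 (SE 0.33) for Spn77Bb and 2.35 (SE 0.20) for NT5E-2, the latter with an adjusted p of 0.0159 from limma. CG4546 (FBgn0038373) had 4.57 and 4.53 in control cells and 6.06 and 5.12 under the label, and its logFC of 1.04 was 0.57 without over-expression replicate 1. The neighbour of the serpin in name, Spn77Bc, was no candidate, with 5.01 and 4.05 against 5.59 and 4.55.

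No gene with a symbol was a candidate in the lower direction. The nearest was CG30154 (FBgn0050154), with 9.13 and 9.20 in control cells and 8.18 and 8.24 under the label. Its logFC was −0.96 (SE 0.12, unadjusted p = 0.00155 from limma), and it passed the threshold at −1.05 on centred arrays and at −1.03 after quantile normalization. Acsf3, of the acyl-CoA synthetase family, had a logFC of −0.65 (SE 0.21) and the alkaline phosphatase gene Alp11 one of −0.64 (SE 0.15), both with groups that did not overlap. These genes too were picked by their values. Over all 112 genes with a symbol, the groups did not overlap for 27 in the higher and 21 in the lower direction, where 22.6% and 23.4% of all genes did so. The secreted chitinase-like protein gene Idgf3 was among the former, with 11.99 and 11.71 against 12.22 and 12.59 and a logFC of 0.55 (SE 0.20, unadjusted p = 0.0529 from limma). LanA, a laminin chain of basement membranes, had −0.13 (SE 0.13).

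Other genes are known here by a FlyBase number and by a Gene Ontology term that the study's supplement attaches to it. Such a term was at hand for 460 genes, of which 18 were higher and 3 lower candidates (4.57% together, against 2.53% of all genes). The terms come from gene lists that the study made from its mutant, embryo and published S2 cell comparisons, so that these genes were not drawn at random. Of the lower candidates, FBgn0000216, listed under response to stimulus, had 10.74 and 10.94 in control cells and 9.09 and 9.60 under the label, a logFC of −1.49 (SE 0.23, adjusted p = 0.261 from limma). FBgn0004882, listed under regulation of oskar mRNA translation, had 6.02 and 6.55 against 4.52 and 5.34. It was the lone lower candidate among the full lists made from mutant embryos, with a logFC of −1.36 (SE 0.37).

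Of the 18 higher annotated candidates, 9 belonged to the full lists made from mutant embryos, most of which concern the egg and the germ line. Of the 13 eggshell formation genes on the array, 3 were higher candidates and 0 lower, where 1.85% and 0.686% of all genes were. Their median logFC was 0.42 against 0.01 for all genes, and against the control mean their median was 0.75 on replicate 1 and 0.24 on replicate 2. FBgn0041252 had 5.77 and 5.85 in control cells and 7.46 and 8.26 under the label, a logFC of 2.05 (SE 0.31, adjusted p = 0.261 from limma). FBgn0002926 had 4.005 and 3.996 against 5.25 and 5.31, a logFC of 1.28 (SE 0.12). The replicates of FBgn0002926 were close in both groups (SD 0.01 and 0.04, n = 2 each). FBgn0003483, with 5.32 and 4.49 against 6.41 and 5.81, was below the logFC threshold at 0.79 without control replicate 2 and at 0.91 without over-expression replicate 1. In the list of germ cell development, 4 of 21 genes were higher candidates and 1 was lower, beside the same shares of all genes. The median logFC of this list was 0.40, but against the control mean its median was 0.25 on replicate 1 and 0.03 on replicate 2, below 0.40 on both. The 29 lists of the mutant embryos that are held in full share most of their genes. They hold 61 genes of the array together, with 9 higher candidates, 1 lower and a median logFC of 0.16. The median control level was 5.33 for the eggshell list and 5.79 for the germ cell list, against 8.17 for all genes. The shares of all genes are therefore not those of equally expressed genes, and no excess is read from the counts.

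Other higher candidates were listed under signalling and metabolism. FBgn0033744, listed under G-protein coupled receptor signalling, had 4.94 and 4.98 in control cells and 6.62 and 7.20 under the label, a logFC of 1.94 (SE 0.24, adjusted p = 0.233 from limma). FBgn0012344 had 3.68 and 4.18 against 5.39 and 5.06, and FBgn0034219, of the same term, 4.51 and 3.79 against 5.35 and 5.36. All of them were higher on both arrays labelled over-expression. The study's list for this term was made from genes higher in mutant cells. FBgn0013307, FBgn0034390 and FBgn0038074, listed under amine metabolic process and taken from the embryos' higher candidates, had a logFC of 1.58 (SE 0.50), 1.47 (SE 0.29) and 1.28 (SE 0.44). FBgn0031929, listed under proteolysis, had 3.73 and 4.08 against 6.55 and 5.31, a logFC of 2.03 (SE 0.47). FBgn0001226, listed under response to stimulus, had 10.99 and 10.81 against 12.18 and 11.87, a logFC of 1.12 (SE 0.17) that was 0.97 without over-expression replicate 1. In embryos its logFC was −0.06 (SE 0.23), and the difference did not pass the test (adjusted p = 0.268 from limma). The 55 full lists of genes higher after ttk knock-down in the S2 cell line held 131 genes of the array. They had 0 candidates in either direction, where 2.53% of all genes were candidates, and a median logFC of −0.14. The gene ttk is itself a member (logFC −0.69), although it was the gene knocked down. Why a list of higher genes holds it was not tested, and no direction is read from these lists. The candidates FBgn0001226 and FBgn0012344 carry terms of S2 knock-down lists that are not held in full, so that the 0 covers the full lists alone. The median control level of the full lists lay between 9.06 and 11.45, against 8.17 for all genes. The share of all genes is therefore not that of equally expressed genes. Of the 25 candidates with a symbol or a term, 16 lost the call without at least 1 of the arrays, 12 of them without over-expression replicate 1, 5 without over-expression replicate 2, 10 without control replicate 1 and 9 without control replicate 2. The 9 that kept it without each array in turn were FBgn0000137, FBgn0000216, FBgn0002926, FBgn0004852, FBgn0012344, FBgn0033744, FBgn0033921, FBgn0034390 and FBgn0041252.

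**Figure D3:**
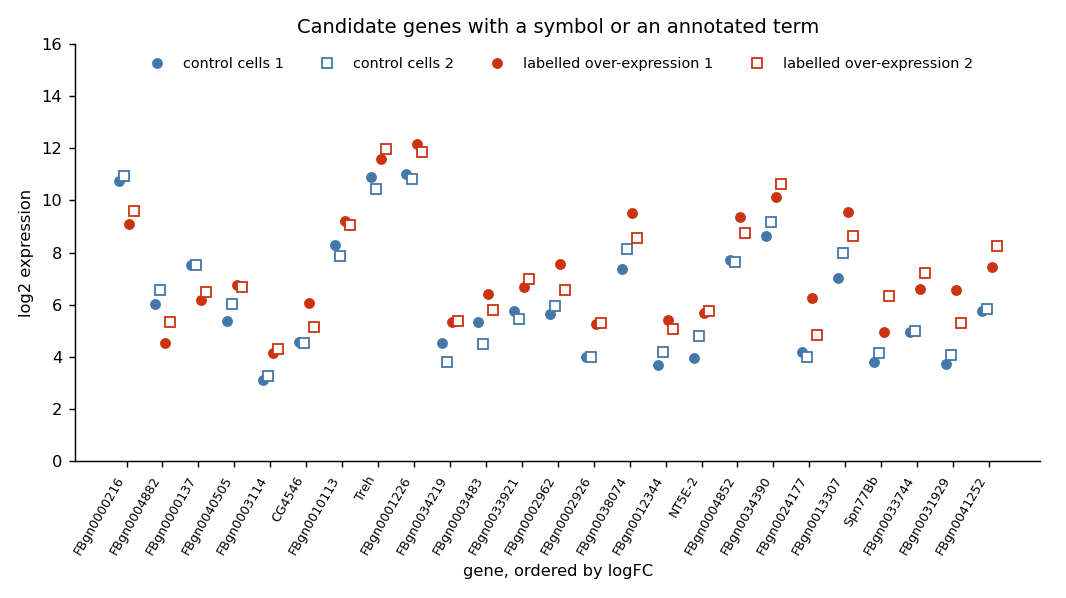
The plot gives log2 expression (vertical axis) on each of the 4 cell arrays for the 25 candidates that have a symbol or a term, ordered by logFC (horizontal axis), with control cells in blue, cells labelled over-expression in red, replicate 1 as filled circles and replicate 2 as open squares. The 3 lower candidates stand at the left and the higher ones to their right, and in none do red and blue values overlap.

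Genes of cell fate commitment had lower values on the arrays labelled over-expression, as a list. The list has 9 genes, which the study took from the lower candidates of the embryos labelled over-expression, so that its direction in embryos is given. On the cell arrays, which were not used for that choice, all 9 had a negative logFC, where 51.4% of all genes had a positive one, and the median was −0.79. The groups did not overlap for 6 of the 9, against 23.4% of all genes in this direction. FBgn0000137 was the candidate among them, with 7.53 and 7.54 in control cells and 6.18 and 6.49 under the label and a logFC of −1.20 (SE 0.16, adjusted p = 0.243 from limma). FBgn0003118 had 12.34 and 12.16 against 11.40 and 11.68, a logFC of −0.71 (SE 0.17). FBgn0025739 had 6.85 and 6.73 against 6.03 and 6.03, a logFC of −0.76 (SE 0.13). The midline gene sim belongs to this list as well. Against the control mean the median of the list was −0.85 on replicate 1 and −0.57 on replicate 2. Over the whole array, 18 of the 87 lower cell candidates were lower candidates in embryos, where 0.639% of all genes were. Genes of other terms that are lower in embryos may therefore lie below 0 in cells too. The list was compared with all genes only, and nothing particular to cell fate is read from it.

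Genes of chitin metabolism showed no common direction in cells. Chitin is the polysaccharide of the cuticle and of the matrix inside tracheal tubes, and the 27 genes of the list were taken by the study from the higher candidates of the embryos labelled over-expression. In these embryos 26 of the 27 were higher candidates here too, with a median logFC of 2.11. The embryo replicates were also apart for these genes. The range over the 3 arrays of a kind had a median of 1.98 in embryos labelled over-expression and of 0.915 in control embryos. The adjusted p in embryos was 0.00557 for FBgn0034582 and 0.053 or above for the other genes (limma). In cells 0 were candidates, with a median logFC of 0.19, 16 positive and 11 negative. In cells, against the control mean, the median of the list was 0.75 on replicate 1 and −1.40 on replicate 2. Against the control array of the same number it was 0.645 and −0.17, though the numbers give no known pairing. The size of the fall on replicate 2 thus depends on the control value used. The replicates of each cell group were far apart for most of these genes. The control arrays differed by 1 or more for 17 of the 27 (63.0%, against 2.55% of all genes), and the arrays labelled over-expression for 19 (70.4%, against 8.60%). In 11 genes replicate 1 was the higher by 1 or more in both groups, and in no gene was replicate 2 the higher in both. FBgn0036951 had 10.06 and 3.85 in control cells and 11.35 and 4.25 under the label. FBgn0036233 had 9.05 and 3.58 against 11.31 and 4.77. Both were thus high on replicate 1 and low on replicate 2 of either group, and their logFC of 0.85 (SE 3.37) and 1.72 (SE 3.04) was smaller than its SE.

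In 5 further chitin genes the control and the labelled replicates differed in opposite ways. FBgn0031000 had 5.76 and 10.33 in control cells and 8.34 and 5.48 under the label, and FBgn0036226 had 4.63 and 7.18 against 7.32 and 4.33. Here control replicate 2 and over-expression replicate 1 were high. The steadiest strong signal of the list was that of FBgn0020416, with 13.07 and 12.98 in the control and 13.62 and 13.92 under the label. It was higher by 0.75 (SE 0.16, unadjusted p = 0.0103 from limma) without overlap. Over the whole array, 118 genes had replicate 1 the higher by 1 or more in both groups, 7 had replicate 2 the higher in both, and 69 differed in opposite ways. Which cells or which step of the preparation these genes vary with was not tested.

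**Figure D4:**
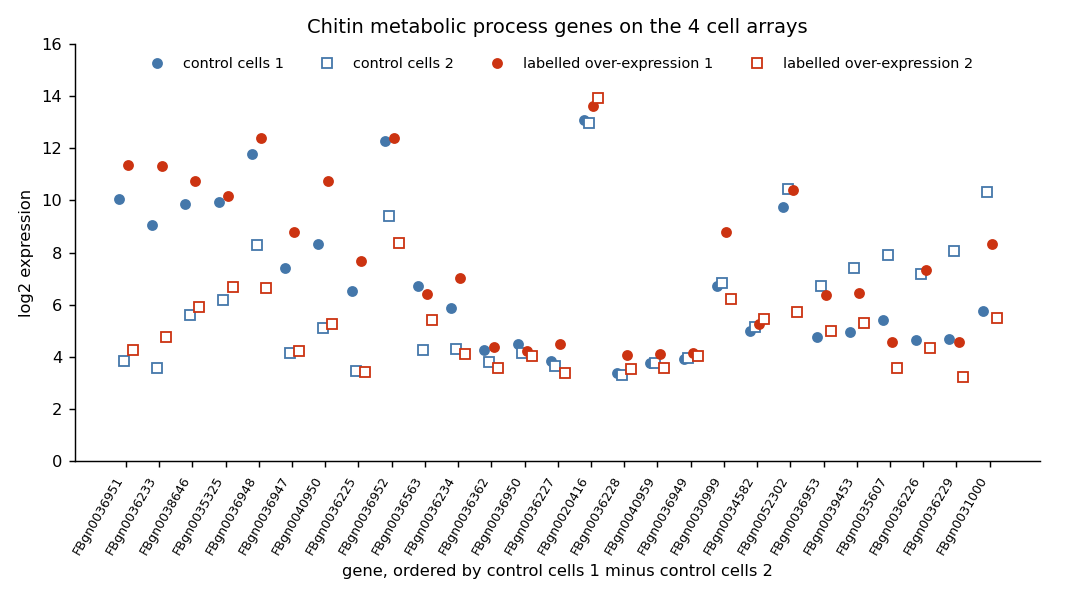
The plot gives log2 expression (vertical axis) of the 27 chitin metabolic process genes (horizontal axis, ordered by control replicate 1 minus control replicate 2) on the 4 cell arrays, with control cells in blue, cells labelled over-expression in red, replicate 1 as filled circles and replicate 2 as open squares. At the left, replicate 1 of both groups lies above replicate 2, by 6.21 in the control for FBgn0036951, and at the right control replicate 2 lies above control replicate 1.

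The change in cells was set beside that in whole embryos of the same genotypes, which were measured on other arrays, 3 of each kind. Of the 234 higher cell candidates, 194 (82.9%) had a positive logFC in embryos, against 39.4% of all genes, and their median there was 0.60. Of the 87 lower ones, 65 (74.7%) had a negative logFC in embryos, against 60.6% of all genes, with a median of −0.41. Among the 234 higher candidates 51 were also higher candidates in embryos and 0 lower, where 2.48% and 0.639% of all genes were. Among the 87 lower ones 18 were lower candidates in embryos and 2 higher. For 100 of the 234 and 45 of the 87 the embryo logFC was under 0.5 in size. Since the candidates were chosen for the size of their logFC in cells, smaller sizes on other arrays follow from that choice, and no difference is read from them.

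The difference between the responses was tested for every gene on the 10 arrays together, and 9 of 12679 genes (0.071%) passed an adjusted p of 0.05 with limma. This fit takes 1 spread per gene over cells and embryos, as does the fit of all 10 arrays above. For a gene that varies more in cells, its p can be too low. In 5 of the 9 genes the logFC was positive and larger in cells, in 3 it was negative and smaller in size in cells, and in 1, the chitin gene FBgn0034582, it was positive and smaller in cells. FBgn0053462 had 5.51 and 6.19 in control cells and 8.59 and 9.14 under the label. Its logFC was 3.01 (SE 0.33) in cells and 0.01 (SE 0.14) in embryos (adjusted p of the difference = 0.0476 from limma). FBgn0031695 had 8.60 and 8.27 against 10.84 and 11.04, with 2.50 (SE 0.18) in cells and 0.03 (SE 0.16) in embryos (adjusted p of the difference = 0.0310 from limma). Both were higher candidates in the sorted cells, with embryo values close to 0.

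Other genes that passed had the larger value in embryos. FBgn0039307 had 6.35 and 6.02 in control cells and 3.68 and 3.21 under the label, a logFC of −2.74 (SE 0.24) in cells and −5.63 (SE 0.10) in embryos (adjusted p of the difference = 0.0232 from limma). FBgn0052305 had 6.16 and 5.59 against 4.43 and 4.12, with −1.60 (SE 0.26) in cells and −4.59 (SE 0.21) in embryos (adjusted p of the difference = 0.0489 from limma). In embryos FBgn0039307 had 9.46, 9.51 and 9.47 in the control and 3.89, 3.96 and 3.70 under the label, and FBgn0052305 had 8.54, 8.70 and 9.11 against 3.97, 4.08 and 4.53. On the labelled arrays both genes were thus at a similar low level in cells and embryos, and it was the control level that was higher in embryos. Both were also low in sorted cells of the mutant experiment, whose titles name neither UAS-ttk nor btl-GAL4. There they had 2.25 on all 3 control arrays and between 1.89 and 2.85 in mutant cells. A low level was thus not limited to the labelled arrays, and its cause was not tested. Whether the low values lie at the floor of the signal was not tested, and the size of either fall depends on it. No symbol could be paired with these numbers, and they were picked after their values had been seen. The count of 9 depends on single arrays. It ranged from 0, as without control cells replicate 2 or any control embryo array, to 90 without over-expression embryos replicate 2, and it was 0 after quantile normalization. Without control cells replicate 1 it was 11, of which 2 had the higher logFC in cells and 9 the lower, where the 9 genes of all arrays were 8 and 1. FBgn0034582 had 5.00 and 5.14 in control cells and 5.27 and 5.43 under the label, with a logFC of 0.28 (SE 0.14) in cells and 2.38 (SE 0.14) in embryos. Of the other 26 chitin genes none passed this test, and the cell fate list held 0 such genes.

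**Figure D5:**
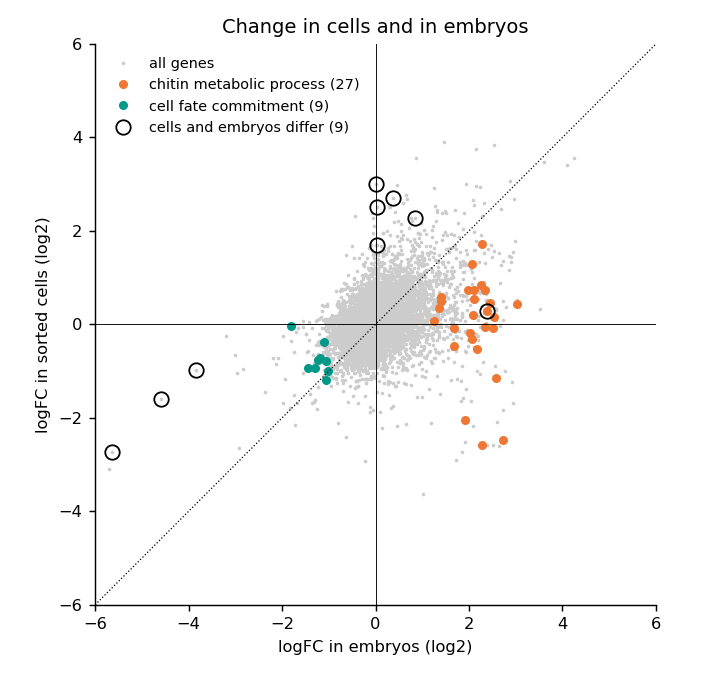
Each point is a gene, with its logFC in embryos (horizontal axis) and in sorted cells (vertical axis), both labelled over-expression minus control on the log2 scale, and a dotted line where they are equal. The 27 chitin genes (orange) lie at the right and scatter around 0 in cells, the 9 cell fate commitment genes (green) lie below 0 in cells, and black rings mark the 9 genes whose responses differed at an adjusted p of 0.05.

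Sorted cells labelled ttk mutant were set against their own control, on 2 and 3 arrays. Their titles name the ttk mutant allele with the btl-enh-RFPmoe reporter against the reporter alone, both without btl-GAL4. Their labels also give a lower growth temperature than the 29 °C of the cells labelled over-expression and their control. The mutant and over-expression comparisons thus differ by more than the state of ttk. Each mutant experiment array was first centred, since the all-gene median lay at −0.67 there. On that scale 99 of the 234 higher candidates (42.3%) were positive in the mutant, against 51.0% of all genes, and the median was −0.14. For the 87 lower candidates it was 0.02. Without centring, 44 of the 234 higher candidates were positive, a larger share than the 1271 of all 12679 genes. Whether the higher candidates were positive less or more often than all genes thus depends on the centring, and no direction is read from it. The transcript of ttk was not lower in the mutant cells either. It had 10.33, 10.35 and 10.23 in their control and 10.49 and 10.42 in the mutant. Its logFC there was 0.15 without centring and 0.83 on centred arrays. On centred arrays CG30154, lower in cells labelled over-expression, had 1.15 in the mutant, and Treh, higher under that label, had −1.44. FBgn0033744, higher in cells labelled over-expression, had 3.06 in the mutant as well. It is known here through a list that the study made from genes higher in mutant cells. Its direction in the mutant was thus given by the choice. These values are a description with no test, and most genes have no symbol to group them by.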

How the data were processed

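The authors' deposited table holds 1 log2 value per array for each of 12679 FlyBase genes. RMA is the tool named by the submitters' processing notes, and a normalization between groups is not given for these arrays in the sources used here. That the unit is log2 was taken from the range of the values. The 182 control features were left out, and 0 columns belonged to no sample. The 4 cell arrays were fitted with limma 3.58.1 (R 4.3.3) and empirical Bayes moderation, two-sided, with Benjamini-Hochberg adjustment over all genes. Candidates had an absolute log2 fold change of at least 1 at an unadjusted p of 0.05. The difference from embryos was a limma contrast on 10 arrays, and mutant cells were described without a test. The script was tested on simulated data. Depth has no counterpart on arrays, and their number limits the precision.

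Of the FlyBase numbers, 105 were matched in the gene table held (2 with several symbols, not named) and 9 in the study's marker table. Of 476 symbols written for 42 pathway and marker lists, 12 were paired, and no list reached 80%, so that Gene Ontology terms were taken from 89 full lists of the study's supplement, used without its values. Named genes are ttk, btl, the largest rises and falls among candidates with a symbol, marker and list members, and those said to be picked by their values. Members and lists were chosen with earlier results of these data known. No sequence is given.

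Alternatives were centred arrays, quantile normalization, a filter on mean expression at the 25th percentile or the median, all 10 arrays in 1 fit, a Cyber-T style test (window 101, confidence 10), the replicate number as a block, an intensity trend, no moderation, other thresholds (1.5 or an adjusted p of 0.1), and each array left out in turn. Keeping the control features was added after the data were seen.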

Additional observations from a re-analysis of the deposited data

Results flagged for a closer look

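The test of the difference between cells and embryos, on arrays labelled over-expression against their control, picked out genes among those named. The change in cells minus the change in embryos was 3.01 for FBgn0053462 and 2.48 for FBgn0031695, both with values close to 0 in embryos. It was 2.89 for FBgn0039307 and 2.99 for FBgn0052305, both of which had a higher level in control embryos than in control cells and a similar low level on all labelled arrays. Their adjusted p from limma lay between 0.0232 and 0.0489.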

How the results depend on the processing

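With 2 arrays per group, each count rests on the spread of few arrays, and signal over background could not be measured. The 321 candidates became 152 without genes below the median, 512 with the Cyber-T style test, 164 without moderation and 134 at a log2 fold change of 1.5, and from 314 to 953 with each array left out, the last without over-expression cells replicate 2, where 252 of the 321 were shared. The other alternatives gave between 278 and 368. The 0 genes at an adjusted p of 0.05 became 188 with all 10 arrays in 1 limma fit and 585 with the Cyber-T style test, and stayed at 0 with each array left out (range 0 to 0), where between 501 and 3261 genes had an unadjusted p of 0.05 or below. The 9 genes whose responses differed between cells and embryos became 4 with centred arrays, 0 after quantile normalization, 22 without genes below the median and 25 with an intensity trend. With each array left out the number ranged from 0 to 90: it was 0 without control cells replicate 2 or control embryos replicate 1, 2 or 3, 1 without over-expression embryos replicate 3, 5 without replicate 1 and 90 without replicate 2, 36 and 58 without over-expression cells replicate 1 and 2, and 11 without control cells replicate 1, where 9 of the 11 had the lower value in cells against 1 of the 9. The cause of these changes was not tested. The replicate numbers give no known pairing, and the differences between replicates 1 and 2 of the groups correlated with r = 0.11 over all genes. With the number as a block, limma gave 368 candidates, 0 genes at an adjusted p of 0.05 (1392 at an unadjusted p of 0.05 or below) and 3 genes that differed between cells and embryos. Without over-expression cells replicate 1 the log2 fold change turned to 0.17 for srp, 0.022 for trh and 0.25 for btl, and without replicate 2 it was −0.85, −0.86 and −0.63. That of gcm2 was 0.0092 without control cells replicate 1 and −0.096 without replicate 2. Over all 49 named genes, 563 of 644 alternative values kept direction and side of the thresholds, 67 lost the candidate call, 10 gained it and 4 changed sign.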

Other observations

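Counts for other terms of the study's lists stand beside shares of 1.85% higher and 0.686% lower candidates among all genes. The serotonin receptor signalling list, made from mutant cells, held 3 genes on the array with 0 candidates and a median log2 fold change of 0.02. The transposition list, made from mutant embryos, held 4 genes, of which 1 was a higher candidate, FBgn0033921, with 5.77 and 5.44 in control cells and 6.67 and 7.00 in cells labelled over-expression. The list of posttranscriptional regulation of gene expression, a group that includes regulators of maternal RNA, had 3 higher and 1 lower candidate among 19 genes, with a median of 0.02. In it FBgn0002962 had 5.62 and 5.97 in control cells and 7.56 and 6.55 under the label, and its log2 fold change of 1.26 was 0.75 without over-expression cells replicate 1. betaTub85D, a tubulin of the testis, had 5.00 and 5.00 in control cells and 5.42 and 5.30 under the label, higher by 0.36 on the log2 scale (standard error 0.13, unadjusted p = 0.0485 from limma).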
